A study of Mus musculus with 4 samples.

Results

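Kinesins are motor proteins that use ATP to walk along microtubules or to take their ends apart. Rows of the count table were taken as kinesin genes where the symbol was Kif or Kifc followed by a digit, which gave 39 of the 17194 symbols. Of these, 13 were classed as mitotic kinesins, 15 as transport kinesins and 10 as other kinesins, which serve cilia, signalling or microtubule dynamics. The remaining row, Kif1bp, encodes a protein that binds kinesins and is not a motor, so it was kept out of the classes. All but Kif28, with a single read in each library, passed the filter on low counts, so 37 motor genes were tested.

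The RNA was polyadenylated RNA from bone marrow-derived mouse macrophages, a primary cell, after 2 days with RANKL, the cytokine that turns such cells into osteoclasts. There were 4 libraries in 2 groups of 2. The siControl group had received a control siRNA and the siHells group an siRNA against Hells, a chromatin remodelling ATPase, and both had received RANKL. The sources used here give neither the strain and age of the mice nor whether the libraries of a group came from separate cultures or animals. The p-values therefore rest on the spread among these libraries, which may be technical.

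Mitotic kinesins build the bipolar spindle, move chromosomes and organise the midzone at which a cell divides, and their transcripts are made mainly in the G2 and M phases of the cell cycle. Transport kinesins carry vesicles, organelles and RNA along microtubules, most of them toward the cell periphery, in dividing and non-dividing cells alike. Osteoclast precursors still divide early after RANKL and leave the cell cycle before they fuse, and the mature osteoclast relies on microtubule transport to deliver acid and proteases to bone.

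Total counts ran from 48873635 to 55642819 per library. Levels are CPM, the read count scaled to library size with TMM factors, and log2 changes are log2 fold changes of siHells over siControl with their SE. Adjusted p-values come from edgeR's quasi-likelihood F test, Benjamini-Hochberg over 15651 genes, with a threshold of 0.05. Hells itself was at 29.4 and 30 CPM in siControl and 15.2 and 14.6 CPM in siHells (log2 change -0.99 ± 0.068 SE, adjusted p = 5.96e-09). Over all genes tested, 29.5% were called lower and 29.0% higher, 58.5% in either direction, and the groups did not overlap in 78.5%. Each of the 7 osteoclast markers was lower (median log2 fold change -2.36), and 4 of 7 macrophage markers were higher and 3 lower. The cells are a bulk sample, and fewer cells of a kind and less RNA per cell cannot be told apart.

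Every one of the 13 mitotic kinesins was lower in siHells, and in none did the groups overlap. Their log2 fold changes lay between -0.75 for Kif2c and -0.38 for Kif18b, with a median of -0.60 where the median of all genes tested was -0.0043. Against the 29.5% of all genes called lower stand 13 of 13 mitotic kinesins, and both siHells libraries lay below both siControl libraries in 39.4% of all genes. The classes were not tested against each other, because they were chosen with results of these data known. Kif2a, which also works on the spindle, was placed among the other kinesins and was higher (log2 change 0.29, edgeR adjusted p = 0.000188). Had it been classed as mitotic, that class would not have been uniform. The 15 transport kinesins went both ways, with 6 higher, 3 lower and 6 not called, and a median of 0.25. Their 9 calls are a share close to the 58.5% called over all genes. The other kinesins had 6 of 9 tested members higher and 2 lower, beside 29.0% of all genes called higher and 29.5% lower.

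**Figure D1:**
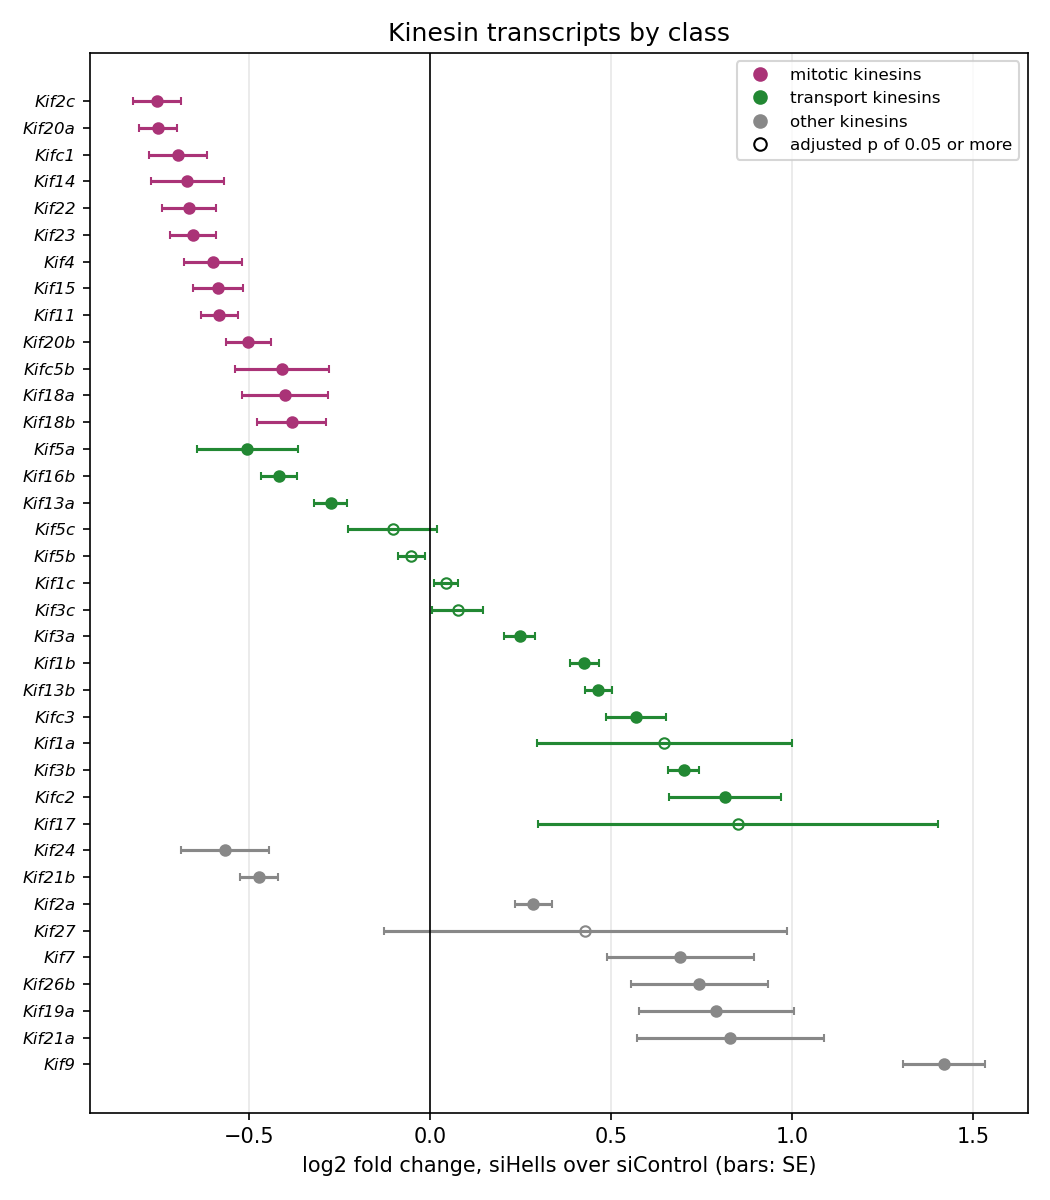
Log2 fold change of each tested kinesin motor, siHells over siControl (horizontal axis, bars are SE of the edgeR fit), with 1 gene per line and the colour giving the class. All 13 mitotic kinesins lie left of 0, while transport and other kinesins lie on both sides. Open circles are genes that did not pass the threshold.

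The kinesins that push the spindle poles apart fell by similar factors. Kif11, the tetrameric motor that slides antiparallel microtubules and the target of monastrol, was at 56.6 and 56.7 CPM in siControl and 36.8 and 39.0 CPM in siHells (log2 change -0.58 ± 0.052 SE, adjusted p = 1.24e-07). Kif15, which can keep the spindle bipolar when Kif11 is inhibited, was at 28.6 and 29.3 CPM in siControl and 18.2 and 20.4 CPM in siHells (log2 change -0.58 ± 0.070 SE, adjusted p = 3.50e-06). Both siControl libraries were above both siHells libraries for each gene, as in 39.4% of all genes, and the siControl libraries lay close together. Kif11 lies on chromosome 19, 37376403 to 37421859, plus strand of GRCm38 and Kif15 on chromosome 9, 122951046 to 123018733, plus strand.

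Kinesins of the central spindle and of cytokinesis fell as well. Kif20a, also called MKLP2, brings the chromosomal passenger complex to the midzone and was at 51.5 and 52.6 CPM in siControl and 30.5 and 31.4 CPM in siHells (log2 change -0.75 ± 0.053 SE, adjusted p = 7.88e-09). Kif23, the motor of the centralspindlin complex, was at 34.1 and 36.2 CPM in siControl and 22.0 and 22.6 CPM in siHells (log2 change -0.65 ± 0.063 SE, adjusted p = 2.82e-07). Its non-motor partner Racgap1 fell 1.59-fold, with mean CPM (SD, n = 2) of 53.1 ± 1.70 in siControl and 33.3 ± 0.295 in siHells (edgeR adjusted p = 3.03e-08). Kif23 and Racgap1, which act as 1 complex, thus had log2 fold changes of -0.65 and -0.67. Kif14, which recruits citron kinase to the midbody, was at 12.9 and 13.9 CPM in siControl and 7.80 and 9.02 CPM in siHells, and Cit, the citron kinase gene, fell 1.36-fold. Kif20b, another midbody kinesin, was at 30.6 and 31.6 CPM in siControl and 21.7 and 22.2 CPM in siHells, a smaller fall (log2 change -0.50 ± 0.063 SE, adjusted p = 5.35e-06).

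The chromosome-bound kinesins, or chromokinesins, push chromosome arms toward the spindle equator. Kif22 was at 28.1 and 29.96 CPM in siControl and 17.2 and 19.4 CPM in siHells (log2 change -0.67 ± 0.074 SE, adjusted p = 1.56e-06) and Kif4, which also shortens midzone microtubules with Prc1, at 17.8 and 18.2 CPM in siControl and 11.9 and 11.8 CPM in siHells (log2 change -0.60 ± 0.080 SE, adjusted p = 1.01e-05). In both genes the higher siHells library stayed well below the lower siControl library. Prc1 itself fell 1.37-fold (edgeR adjusted p = 2.45e-06). An opposite-strand gene, Pdzd11, shares 15.1% of the exon length of Kif4 and stood at -0.02 ± 0.068 SE on the log2 scale (edgeR adjusted p = 0.812). For Kif20a the opposite-strand gene Cdc23 shares 29.3% of the exon length, at a log2 change of -0.03 ± 0.056 SE (edgeR adjusted p = 0.644). Whether the reads kept their strand is not settled by the labels, so reads of such pairs may be mixed.

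Among the kinesins that shorten microtubules, the largest mitotic fall stood beside the smallest. Kif2c, or MCAK, which depolymerises microtubules at centromeres to correct faulty attachments, was at 29.4 and 30.7 CPM in siControl and 17.7 and 17.9 CPM in siHells (log2 change -0.75 ± 0.066 SE, adjusted p = 1.04e-07). Kif18b, which acts on the plus ends of astral microtubules, was at 11.8 and 13.2 CPM in siControl and 9.87 and 9.28 CPM in siHells (log2 change -0.38 ± 0.096 SE, adjusted p = 0.0031), and Kif18a, which damps chromosome oscillations, at 7.21 and 6.67 CPM in siControl and 5.15 and 5.39 CPM in siHells (log2 change -0.40 ± 0.12 SE, adjusted p = 0.00971). The Kif18 genes were nearer to the spread of their libraries than Kif2c, and Kif18a did not pass the threshold without siControl replicate 1 (adjusted p = 0.0709).

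The minus-end directed Kifc1, which focuses spindle poles and clusters extra centrosomes, was at 20.6 and 23.0 CPM in siControl and 13.6 and 13.2 CPM in siHells (log2 change -0.70 ± 0.080 SE, adjusted p = 2.29e-06). Its close relative Kifc5b was at 5.68 and 6.13 CPM in siControl and 4.58 and 4.30 CPM in siHells (log2 change -0.41 ± 0.13 SE, adjusted p = 0.0135). The longest coding transcripts of the pair align over 2312 bases with 96.8% identity, so reads may have been split between them and their values are not independent. Kifc5b did not pass without siControl replicate 2 (adjusted p = 0.0861) or without siHells replicate 2 (adjusted p = 0.0664).

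**Figure D2:**
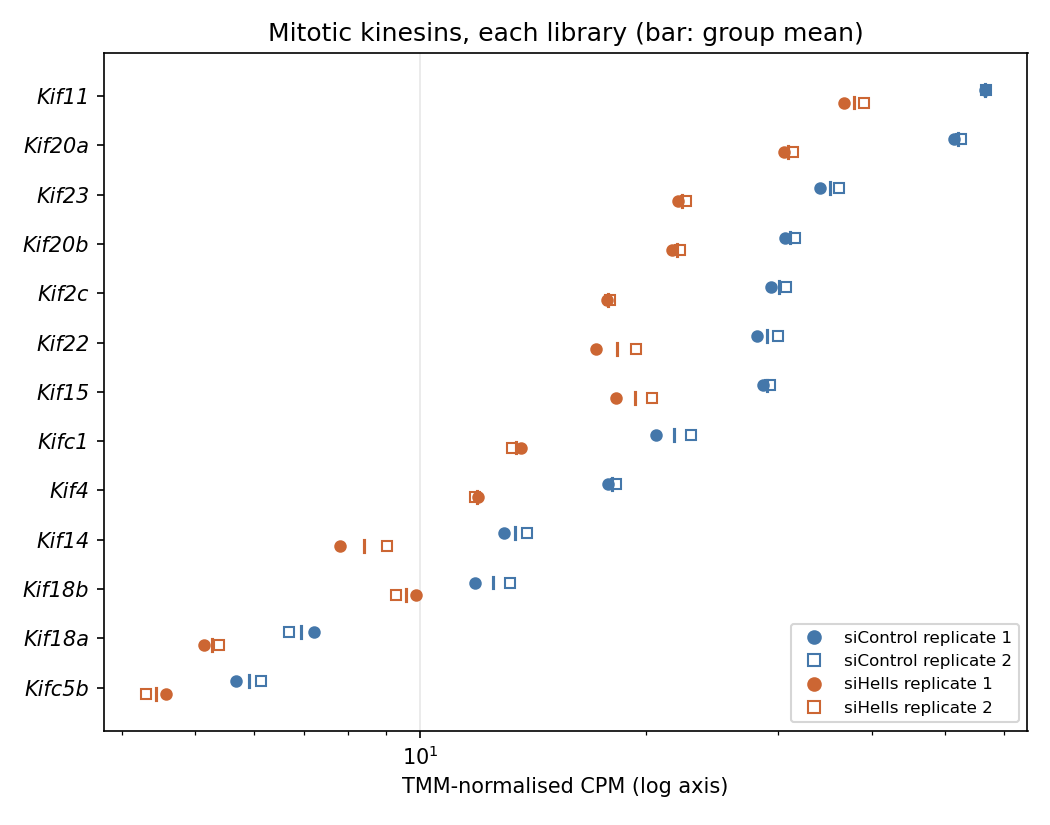
TMM-normalised CPM of the 13 mitotic kinesins in each library on a log axis, with 1 gene per line, filled circles for replicate 1, open squares for replicate 2 and a bar at each group mean. In every gene both siHells libraries lie below both siControl libraries, from Kif11 at the top to Kifc5b at the bottom.

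Most mitotic members with a promoter window also share letters there that the class rule did not use. The promoters are RefSeq windows of GRCm38.p6 from 250 bases before to 50 bases after the start site, and a window was found for 29 of 38 kinesin motor genes, 12 of them mitotic, with 1 window each, 10 transport, with 12 windows in all, and 7 of the other class, with 9 windows. The cell cycle genes homology region (CHR) is known as a site through which the DREAM and MuvB complexes time late cell cycle genes, often with CCAAT boxes, bound by NF-Y, close by. The CHR letters TTTGAA, read on both strands, stood in the windows of 11 of 12 mitotic kinesins, in 1 of 12 windows of transport kinesins (Kif1a), in 2 of 9 windows of the other kinesins (Kif26b and Kif27) and in 17.9% of all 32851 windows. CCAAT, on both strands, stood in 8 of 12 mitotic windows, in 4 of 12 transport windows, in 3 of 9 windows of the other kinesins and in 37.4% of all windows. An E2F letter string (TTTGGCGC on both strands) was found in Kif15 and Kif18a, the latter being the mitotic gene with no TTTGAA, and in 0.514% of all windows. The other E2F strings searched, TTTCCCGC, TTTCGCGC and TTTGCCGC, and the CHR variant TTCGAA were in none of the mitotic windows. No match overlapped another in the kinesin windows. Some windows lie inside the gene rather than at its GENCODE start, so their letters may not be those of the main promoter. Kif14 starts at 136466343, and its window runs from 136467598 to 136467897. Kif2c, on the minus strand, starts at 117182639, with a window from 117178723 to 117179022. Kif4 starts at 100625737, and its window runs from 100625815 to 100626114. The matched windows of Kif1a and Kif27 lie inside the gene as well. The counts above include them.

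Stretches of 8 mitotic kinesin promoters follow, from 80 bases before to 30 bases after the start site and 5′ to 3′ on the gene's strand, chosen because the CHR match of each lies near the start site. Capitals mark the CHR, CCAAT and, in Kif15, E2F letters, read in either orientation.
Kif11 (chr19:37376302-37376411, plus strand): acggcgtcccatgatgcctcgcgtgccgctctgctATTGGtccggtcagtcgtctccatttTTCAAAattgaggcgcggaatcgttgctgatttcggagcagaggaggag
Kif15 (chr9:122951001-122951110, plus strand): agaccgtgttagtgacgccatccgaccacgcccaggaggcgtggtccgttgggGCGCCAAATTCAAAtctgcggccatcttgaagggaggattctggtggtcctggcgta
Kif22 (chr7:127042391-127042500, minus strand): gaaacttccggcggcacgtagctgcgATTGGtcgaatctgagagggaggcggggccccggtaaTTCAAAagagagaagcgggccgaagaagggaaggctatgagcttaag
Kif23 (chr9:61946770-61946879, minus strand): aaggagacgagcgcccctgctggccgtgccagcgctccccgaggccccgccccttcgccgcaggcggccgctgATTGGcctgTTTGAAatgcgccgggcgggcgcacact
Kif18b (chr11:102925095-102925204, minus strand): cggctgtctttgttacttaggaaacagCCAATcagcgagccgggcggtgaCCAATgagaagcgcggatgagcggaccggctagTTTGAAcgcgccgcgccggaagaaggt
Kif20b (chr19:34922278-34922387, plus strand): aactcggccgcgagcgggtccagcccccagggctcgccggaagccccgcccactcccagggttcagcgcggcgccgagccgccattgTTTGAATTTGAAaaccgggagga
Kif4 (chrX:100625985-100626094, plus strand): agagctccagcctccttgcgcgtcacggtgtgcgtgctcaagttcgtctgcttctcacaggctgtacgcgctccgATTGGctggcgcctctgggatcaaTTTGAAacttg
Kifc1 (chr17:33890604-33890713, minus strand): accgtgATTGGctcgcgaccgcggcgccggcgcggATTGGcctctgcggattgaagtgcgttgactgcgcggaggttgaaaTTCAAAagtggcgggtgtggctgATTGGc

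In these 8 genes, and in Kifc5b, TTTGAA began within 30 bases of the start site on either side, which held for 9 of 12 mitotic windows, 0 of 12 transport windows, 1 of 9 windows of the other kinesins (Kif26b) and 3.14% of all windows. That distance was chosen after the positions were seen. The Kif4 window, which lies inside the gene, is among the 9. Kifc1 and Kifc5b have nearly the same letters in their windows, so the pair is not independent in this count or in those of TTTGAA and CCAAT above. For comparison, 3 kinesins that rose are shown, with the same letters in capitals. The windows of the transport kinesins Kif3b and Kif3a hold CCAAT letters and no CHR match. That of Kif26b, of the other class, holds TTTGAA near the start site and CCAAT before it, as several mitotic windows do, although Kif26b was higher in siHells (log2 change 0.74 ± 0.19 SE, edgeR adjusted p = 0.00338).
Kif3b (chr2:153291336-153291445, plus strand): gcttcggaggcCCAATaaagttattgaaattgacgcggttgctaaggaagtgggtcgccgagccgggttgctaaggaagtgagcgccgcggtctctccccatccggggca
Kif3a (chr11:53567289-53567398, plus strand): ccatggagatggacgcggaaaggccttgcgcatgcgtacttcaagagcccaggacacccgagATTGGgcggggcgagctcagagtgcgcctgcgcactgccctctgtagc
Kif26b (chr1:178529045-178529154, plus strand): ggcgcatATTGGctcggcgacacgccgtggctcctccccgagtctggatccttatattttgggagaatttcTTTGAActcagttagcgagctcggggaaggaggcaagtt

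Kif24, a centriolar kinesin outside the mitotic class that was also lower, was the only kinesin window with the variant TTCGAA, which 1.56% of all windows hold. The windows of Kif24, Kif26b and Kif27 each hold CHR letters of either form together with CCAAT, and of these genes Kif24 was lower, Kif26b higher and Kif27 not called. A match describes letters and not a bound site.

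**Figure D3:**
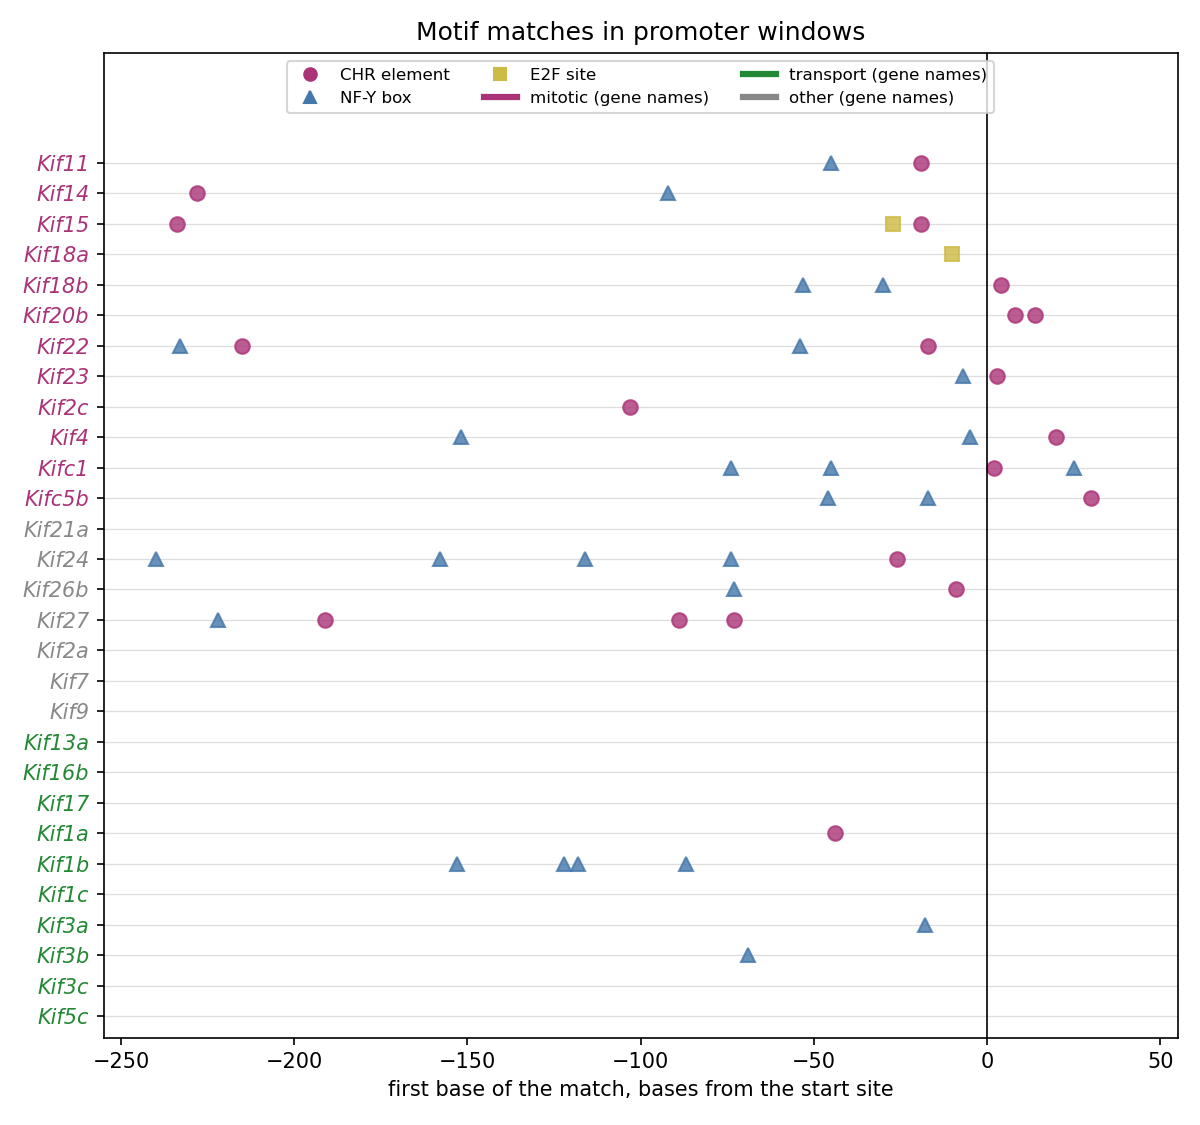
First base of each match in the promoter windows of mitotic, transport and other kinesins, in bases from the start site (vertical line at 0). Circles are CHR letters of either form, triangles NF-Y boxes and squares E2F strings, and genes with more than 1 window have all matches on the same line. Circles crowd around the start site for 9 of the 12 mitotic genes, and circles also stand on the lines of Kif1a among the transport genes and of Kif24, Kif26b and Kif27 among the other genes.

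The partners with which mitotic kinesins work fell with them. Of 30 genes for spindle, kinetochore and midzone proteins, 27 were lower, beside 29.5% of all genes, and 1, Numa1, was higher (log2 fold change 0.15), with a median of -0.66. Cenpe, itself a kinesin of the kinetochore whose symbol falls outside the rule, fell with mean CPM (SD, n = 2) of 58.9 ± 4.20 in siControl and 39.8 ± 3.03 in siHells (log2 change -0.56 ± 0.063 SE, adjusted p = 2.15e-06). The members with the smallest p were the checkpoint kinases Bub1b (-0.82) and Bub1 (-0.84), the cyclin Ccnb1 (-0.99) and its kinase Cdk1 (-0.67), each a log2 fold change. Incenp and Ckap5 did not pass, at -0.07 ± 0.043 SE and -0.03 ± 0.040 SE. All 7 proliferation markers were lower too, with a median of -0.52. The part that a change in the share of dividing cells has in these values was not tested.

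Among 20 regulators of late cell cycle genes, 6 were lower, 2 higher and 12 not called, fewer calls than the 58.5% over all genes would give. The transcription factor Foxm1 fell 1.39-fold (log2 change -0.47 ± 0.067 SE, adjusted p = 2.04e-05), and Mybl2, which encodes B-Myb, fell 1.30-fold. The members that rose were Rb1, the retinoblastoma gene, at 0.66, and Rbl2, which encodes the DREAM subunit p130, at 0.44 (edgeR adjusted p = 3.70e-08 and 2.82e-07). Its relative Rbl1, p107, went the other way with a log2 fold change of -0.47. The NF-Y subunit genes Nfya and Nfyb were not called, at 0.01 ± 0.043 SE and 0.07 ± 0.081 SE, and Nfyc was lower, at -0.37 ± 0.060 SE.

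Heterotrimeric kinesin-2, made of Kif3a, Kif3b or Kif3c and the adaptor Kifap3, carries cargo along cytoplasmic microtubules and builds cilia. Kif3b had the smallest p among all kinesins and was at 69.0 and 69.8 CPM in siControl and 116 and 109.9 CPM in siHells (log2 change 0.70 ± 0.043 SE, adjusted p = 1.31e-09). Kif3a, its obligate partner, was at 70.6 and 71.9 CPM in siControl and 83.1 and 86.2 CPM in siHells (log2 change 0.25 ± 0.043 SE, adjusted p = 0.000144), and Kifap3 rose 1.32-fold (log2 change 0.40 ± 0.064 SE, adjusted p = 7.02e-05). So 3 genes of the Kif3a, Kif3b and Kifap3 complex rose and none of their groups overlapped, as in 39.1% of all genes with siHells higher. Kif3c, the alternative partner of Kif3a, was at 20.3 and 21.9 CPM in siControl and 22.7 and 21.8 CPM in siHells, and its groups overlapped (log2 change 0.08 ± 0.071 SE, adjusted p = 0.362). An opposite-strand noncoding gene, 1110002L01Rik, shares 35.3% of the Kif3c exon length and fell by 0.67 ± 0.12 SE on the log2 scale (edgeR adjusted p = 0.000198). Per length of exon, Kif3a was at 19.9 ± 0.262 CPM per kb in siControl and 23.6 ± 0.607 CPM per kb in siHells and Kif3b at 12.3 ± 0.107 CPM per kb in siControl and 20.0 ± 0.739 CPM per kb in siHells (SD, n = 2 each), so the level of Kif3b per length rose from below that of Kif3a to nearer it. Kif17, the homodimeric kinesin-2, had 6 and 9 reads with siControl and 15 and 13 with siHells and was not called (log2 change 0.85 ± 0.55 SE, adjusted p = 0.201). Without siControl replicate 1 that value was 0.52.

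Conventional kinesin-1, a heavy chain dimer with light chains that carries mitochondria, lysosomes and other organelles, had no call in its main heavy chain. Kif5b was at 177 and 182 CPM in siControl and 169 and 177 CPM in siHells, with overlapping groups (log2 change -0.05 ± 0.036 SE, adjusted p = 0.251). With library totals in place of TMM it was called lower, with a log2 fold change of -0.12 (adjusted p = 0.00847), a scaling that moved the median of all genes by -0.07. The heavy chains better known from neurons were low: Kif5a was at 5.11 and 4.90 CPM in siControl and 3.58 and 3.48 CPM in siHells (log2 change -0.50 ± 0.14 SE, adjusted p = 0.00588) and Kif5c at 8.33 and 6.79 CPM in siControl and 6.75 and 7.40 CPM in siHells (log2 change -0.10 ± 0.12 SE, adjusted p = 0.499). The value of Kif5c ran from -0.23 without siControl replicate 2 to 0.05 without siControl replicate 1. Of the light chain genes, Klc1 was not called (log2 fold change 0.04 ± 0.040 SE), Klc2 fell 1.24-fold and Klc4 fell 1.65-fold, with mean CPM (SD, n = 2) of 62.6 ± 1.59 in siControl and 37.9 ± 2.25 in siHells (edgeR adjusted p = 1.54e-08). The kinesin-1 subunit genes that passed, Kif5a, Klc2 and Klc4, were lower, while Kif5b, Kif5c and Klc1 did not pass. Over all genes 29.5% were called lower and 58.5% in either direction, so these calls are not read as a trait of kinesin-1.

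Kinesin-3 motors, fast carriers of vesicles and endosomes, split by gene. Kif13b, which carries phosphoinositide-bound vesicles, was at 103 and 107 CPM in siControl and 143 and 146 CPM in siHells (log2 change 0.47 ± 0.038 SE, adjusted p = 4.04e-08). Kif1b, known for mitochondria and synaptic vesicle precursors, was at 111 and 117 CPM in siControl and 149 and 157 CPM in siHells (log2 change 0.43 ± 0.041 SE, adjusted p = 2.53e-07). Both rose, with both siHells libraries above both siControl libraries, as in 39.1% of all genes. Kif13a, which moves recycling endosomes, was at 74.2 and 75.4 CPM in siControl and 63.4 and 60.4 CPM in siHells (log2 change -0.27 ± 0.045 SE, adjusted p = 9.76e-05), and Kif16b, a motor of early endosomes, at 58.4 and 59.8 CPM in siControl and 45.3 and 43.2 CPM in siHells (log2 change -0.42 ± 0.050 SE, adjusted p = 3.32e-06). Both fell, so the closely related Kif13a and Kif13b moved in opposite directions. Kif1c, linked to podosomes and integrin traffic in macrophages, was at 199 and 199 CPM in siControl and 208 and 201 CPM in siHells and was not called (log2 change 0.04 ± 0.034 SE, adjusted p = 0.277), and its direction turned with library totals, to -0.03. Kif1a, a neuronal carrier, had 25 and 24 reads with siControl and 47 and 32 with siHells and was not called (log2 change 0.65 ± 0.35 SE, adjusted p = 0.129). Without siHells replicate 1 its log2 change was 0.35.

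The minus-end directed transport kinesins of the kinesin-14 family both rose. Kifc3, which works at the Golgi and at cell junctions, was at 19.4 and 22.1 CPM in siControl and 32.9 and 28.5 CPM in siHells (log2 change 0.57 ± 0.083 SE, adjusted p = 3.50e-05). Kifc2 was at 2.95 and 2.78 CPM in siControl and 5.46 and 4.62 CPM in siHells (log2 change 0.81 ± 0.15 SE, adjusted p = 0.000323). Both siHells libraries were above both siControl libraries in each gene, as in 39.1% of all genes, while their mitotic relative Kifc1 fell.

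**Figure D4:**
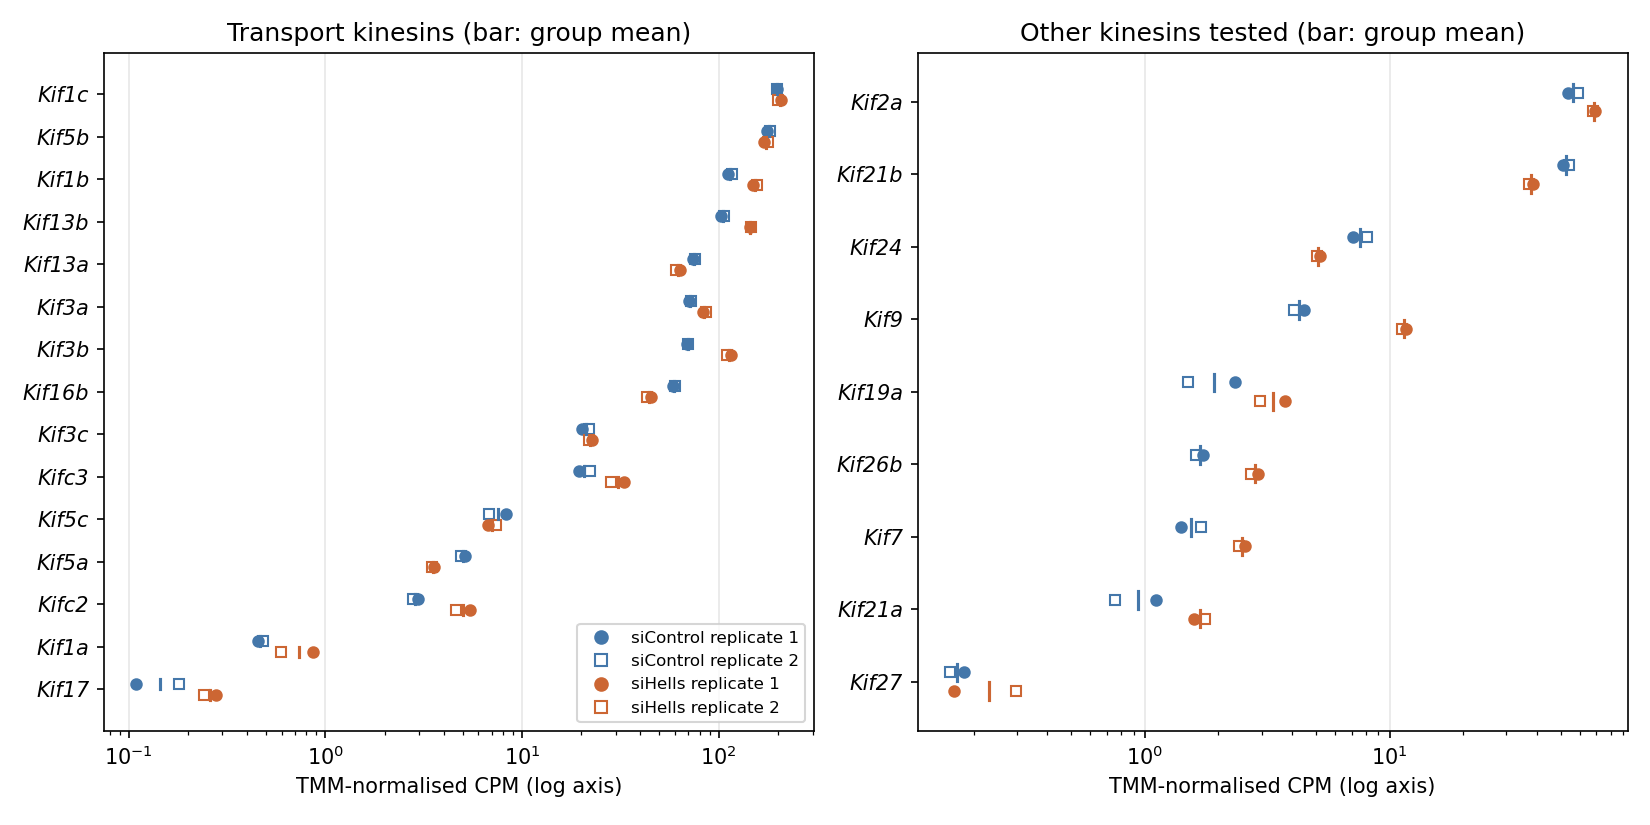
TMM-normalised CPM of the transport kinesins (left) and of the other kinesins that were tested (right) in each library on log axes, with the symbols as in the plot of mitotic levels. Kif3b and Kif9 show the clearest separation upward in siHells, and Kif5b and Kif1c, the 2 highest, show almost none.

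The largest change of any kinesin was in Kif9, a kinesin best known from motile cilia and also reported at macrophage podosomes, where it takes part in matrix degradation. It was at 4.46 and 4.08 CPM in siControl and 11.7 and 11.2 CPM in siHells, 2.68-fold higher (log2 change 1.42 ± 0.11 SE, adjusted p = 3.15e-08), and it lies on chromosome 9, 110476958 to 110525179, plus strand of GRCm38. The siControl libraries lay close together and far below the siHells libraries. Markers of ciliated cells were near absent: 3 of 5 were not in the table, and the other two summed to between 0.719 and 1.51 CPM per library.

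Low-level kinesins of cilia, signalling and development rose as well. Kif7, a regulator of Hedgehog signalling at the cilium tip, was at 1.40 and 1.70 CPM in siControl and 2.56 and 2.42 CPM in siHells (log2 change 0.69 ± 0.20 SE, adjusted p = 0.00852). Kif19a, which sets cilium length, was at 2.33 and 1.499 CPM in siControl and 3.75 and 2.94 CPM in siHells (log2 change 0.79 ± 0.21 SE, adjusted p = 0.00531), Kif21a at 1.11 and 0.759 CPM in siControl and 1.59 and 1.77 CPM in siHells (log2 change 0.83 ± 0.26 SE, adjusted p = 0.0121) and Kif26b at 1.73 and 1.62 CPM in siControl and 2.90 and 2.72 CPM in siHells (log2 change 0.74 ± 0.19 SE, adjusted p = 0.00338). Both siHells libraries lay above both siControl libraries in each, as in 39.1% of all genes, but each stood below 4 CPM in every library. Kif19a and Kif21a did not pass without siControl replicate 2 (adjusted p = 0.0592 and 0.107), nor Kif7 without siControl replicate 1 (adjusted p = 0.087). Kif27 had 10 and 8 reads with siControl and 9 and 16 with siHells, with overlapping groups (log2 change 0.43 ± 0.56 SE, adjusted p = 0.53). Its sign turned without siHells replicate 2, to -0.04, and the value was 0.79 without siHells replicate 1.

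Markers of stromal cells moved in the same direction as these genes. Of 7 stromal markers 6 were higher, beside 29.0% of all genes, and 1, Col3a1, was lower. The 7 markers summed to 1000 and 1024 CPM in siControl and 1793 and 1764 CPM in siHells. Among neuron markers 4 of 5 were not in the table, and Tubb3 rose with mean CPM (SD, n = 2) of 2.30 ± 0.449 in siControl and 4.80 ± 0.0611 in siHells. Their part in the rise of the low-level kinesins was not tested.

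Kinesins that tune microtubule length or growth went both ways. Kif2a, a depolymerase of the Kif2c family that works in interphase as well as on the spindle, was at 53.8 and 58.9 CPM in siControl and 69.2 and 67.9 CPM in siHells (log2 change 0.29 ± 0.051 SE, adjusted p = 0.000188), higher where Kif2c was lower. The opposite-strand gene Dimt1 shares 19.2% of its exon length and was lower (log2 change -0.26 ± 0.10 SE, edgeR adjusted p = 0.0366). Kif21b, which limits microtubule growth in leukocytes and neurons, was at 51.2 and 54.0 CPM in siControl and 38.5 and 37.3 CPM in siHells (log2 change -0.47 ± 0.053 SE, adjusted p = 1.69e-06). Kif24, which restrains cilium formation at the mother centriole and is highest in cycling cells, was at 7.11 and 8.07 CPM in siControl and 5.18 and 5.05 CPM in siHells (log2 change -0.57 ± 0.12 SE, adjusted p = 0.000939). Kif1bp, the non-motor row, was at 40.2 and 39.4 CPM in siControl and 45.6 and 48.3 CPM in siHells (log2 change 0.24 ± 0.054 SE, adjusted p = 0.00143).

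Levels per length show how the kinesin pool was divided. Kif1c was the highest transport kinesin, at 27.3 ± 0.0144 CPM per kb in siControl and 28.2 ± 0.704 CPM per kb in siHells, followed in siControl by Kif5b at 22.4 ± 0.439 CPM per kb in siControl and 21.7 ± 0.713 CPM per kb in siHells (SD, n = 2 each). Kif3a and Kif3b, given above, were the next. In siHells, Kif3a stood above Kif5b. The highest mitotic kinesin was Kif20a, at 11.9 and 12.1 CPM per kb in siControl and 7.03 and 7.23 in siHells, and the lowest was Kif18a, at 0.706 ± 0.0381 CPM per kb in siControl and 0.536 ± 0.0172 CPM per kb in siHells. Summed over 38 motor genes the level was nearly even across the libraries, at 195 and 201 CPM per kb in siControl and 196 and 195 CPM per kb in siHells. Mitotic kinesins held 30.4% and 30.8% of it in siControl and 19.6% and 20.3% in siHells, while transport kinesins held 61.6% and 61.0% against 70.5% and 70.1%. The ratio of the mitotic to the transport sum was 0.493 and 0.505 in siControl and 0.279 and 0.289 in siHells. These sums are a description without a test.

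**Figure D5:**
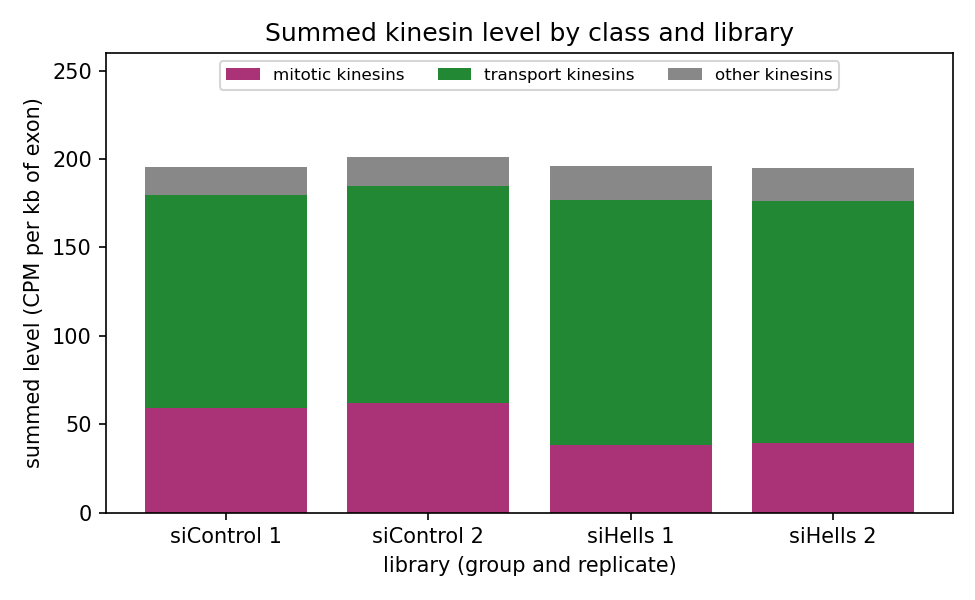
Summed level of kinesin motors in CPM per kb of exon (vertical axis) in each library (horizontal axis), stacked by class. The total stays between 195 and 201 in all 4 libraries while the mitotic part is smaller, and the transport part larger, in both siHells libraries.

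Other genes of the microtubule system were called in both directions, at shares that can be read against the 29.5% of all genes called lower and 29.0% called higher. Of 15 tested light chain and cargo adaptor genes 6 were lower and 4 higher, near the 58.5% called in all, with Arl8b, which couples lysosomes to kinesin, at -0.50 and Mapk8ip3, the JIP3 adaptor, at 0.54 (edgeR adjusted p = 2.06e-09 and 7.36e-08). The mitochondrial adaptors Trak2, Rhot1 and Rhot2 were not called, with log2 fold changes of -0.01 ± 0.048 SE, -0.07 ± 0.048 SE and 0.03 ± 0.052 SE, and Trak1 was lower at -0.17 ± 0.044 SE. The opposing motor, cytoplasmic dynein with dynactin and its adaptors, had 10 of 25 genes lower and 7 higher, also near that share, and a median of -0.03. Its heavy chain Dync1h1 rose 1.15-fold, the light intermediate chain Dync1li1 fell 1.35-fold, and the adaptor Hook1 fell 3.80-fold, with mean CPM (SD, n = 2) of 5.32 ± 0.321 in siControl and 1.40 ± 0.233 in siHells (edgeR adjusted p = 1.82e-07).

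Of 16 tubulin genes 6 were lower and 1, Tubb3, higher, with 9 not called, so the share lower is near the 29.5% of all genes. Tubb6 fell 1.93-fold (log2 change -0.95 ± 0.037 SE, adjusted p = 5.87e-12) and Tuba1c 1.41-fold. The main beta tubulin Tubb5, at 504 ± 8.38 CPM in siControl, fell 1.15-fold, to 439 ± 8.95 CPM (SD, n = 2 each; edgeR adjusted p = 3.14e-05). Tubulin genes are close copies of each other, so reads may be split among them. Of 16 microtubule-associated proteins tested, 8 were higher and 6 lower, led by Map1b, 2.87-fold higher (log2 change 1.52 ± 0.085 SE, adjusted p = 4.41e-10), and Clip2, 1.72-fold lower (log2 change -0.79 ± 0.050 SE, adjusted p = 2.27e-09). Stmn1, the tubulin-sequestering stathmin, fell 1.45-fold, and Map7, a recruiter of kinesin-1, fell 2.55-fold with mean CPM (SD, n = 2) of 2.53 ± 0.156 in siControl and 0.99 ± 0.557 in siHells (edgeR adjusted p = 0.00078).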

How the data were processed

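Raw counts per gene, whole numbers with 1 column per library, were used as the authors deposited them. Trimmomatic 0.38, HISAT2 2.1.0, StringTie 2.1.3b, FastQC and edgeR are named, with mm10 and without roles, in the submitters' processing notes. Per the labels' protocols 2 library kits are named, 1 of them stranded. The sources used here do not give the read counter, its annotation or its strand setting. The lowest count was 1 and no value was 0, so a gene with 0 reads in a library is not analysed here.

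Genes were filtered with filterByExpr (minimum count 10, minimum total 15), scaled by TMM and tested with the edgeR quasi-likelihood test (edgeR 4.0.16, R 4.3.3, robust, group as the only term, 2 residual degrees of freedom), adjusted over 15651 genes. A count of 10 stands for 0.18 to 0.205 CPM. The test was tried on simulated counts with 200 genes changed and 1 dispersion for all genes (biological coefficient of variation 0.0418). There (15503 genes tested) it recovered 30.6% of genes changed 1.2-fold, 81.6% at 1.5-fold and 94.0% at 2-fold, with 6 false calls of 157. In the real data 58.5% of genes were called, which makes the adjusted threshold less strict, so these shares cannot be carried over. Exon lengths and overlaps are from GENCODE M21, as the union of all exons of a gene, and promoters from RefSeq (GRCm38.p6). Transcripts were aligned with blastn 2.17.0.

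The members, classes and lists were chosen with earlier results of these data known, so no list was tested as a set. Named in full were all mitotic kinesins, transport and other kinesins past the threshold with an absolute log2 fold change of at least 0.5, the most abundant transport kinesins and those against their class. Up to 4 genes with the smallest p came from each further list. Genes named beyond that, among them Racgap1, Cit, Prc1, Mybl2, Nfya, Klc2, Rhot1 and Dync1h1, were picked once their values were seen. Alternatives were DESeq2 size factors, library totals, no filter, limma voom (limma 3.58.1), the Wald test of DESeq2 1.42.0, a replicate block, leaving out each library, a threshold of 0.01 and a test against a 1.5-fold change. Same-numbered libraries had a correlation of their deviations of 0.0499, so the numbers were not taken as pairs. Within a group the libraries differed beyond sampling noise (chi-square per gene 3.67 in siControl, 7.03 in siHells). Of the marker lists not given with the results, no lymphocyte marker of 6 was in the table. Lower were 3 of 6 neutrophil and progenitor markers, beside 29.5% of all genes, and the megakaryocyte genes Pf4 and Itga2b were higher.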

Additional observations from a re-analysis of the deposited data

How the results depend on the processing

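No called kinesin changed sign under any alternative. Against a 1.5-fold change (edgeR's glmTreat), a stricter null by construction, 2 mitotic kinesins were lower, 1 transport kinesin was higher and 0 were lower, and 1 other kinesin was higher and 0 were lower. Over all 15651 genes tested, 1096 were lower and 1261 higher against that fold. At an unadjusted p under 0.05 that test also gave 0 lower in the transport and in the other kinesins. No other tool was run against a 1.5-fold change. Counting the other kinesins with the transport kinesins gave 12 higher and 5 lower, and a median log2 fold change of 0.43. With library totals in place of TMM the median of the mitotic kinesins was -0.67 and that of the transport kinesins 0.18, beside a shift of -0.07 in the median of all genes. The remaining scalings, filters, tests and the threshold of 0.01 left each count within 1.5 times. With the replicate block, 13 mitotic kinesins were lower, 6 transport kinesins higher and 3 lower, so the block changed no count, and the numbers mark no shared animal or day in the labels. Leaving out a library gave 12 to 13 mitotic kinesins lower, 3 transport kinesins lower and 6 higher, 2 other kinesins lower and 4 to 6 higher, with medians of -0.66 to -0.57 for mitotic and 0.23 to 0.28 for transport kinesins. By the DESeq2 Wald test Kifc5b and Kif21a did not pass (adjusted p = 0.0557 and 0.0506). Depth limits Kif1a, Kif17 and Kif27, whose SE ran from 0.352 to 0.556 on the log2 scale. Among kinesins not called, the log2 change of Kif3c ran from 0.01 to 0.14, that of Kif1c from 0.02 to 0.07 and that of Kif5b from -0.08 to -0.01 as each library was left out.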
